A study of Mus musculus with 12 samples.

Results

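Hair follicle cells of old mice were compared with those of young mice at the start of hair growth, in early anagen. The comparison used 6 of the 12 RNA sequencing libraries of the series, 3 from old and 3 from young skin, taken by the age and replicate number in the count table's column names. Of 55359 genes in the table, 16011 had enough counts to be tested. All 12 libraries came from skin of mice with the genotype K15-EGFP Tg/+, in which a keratin 15 promoter drives a green fluorescent protein. Cells were sorted as EGFP(Hi)/ITGA6(Hi)/ScaI(-), and the labels name them stem cells of the hair follicle together with hair germ. The 2 early anagen groups, young and old, carried the treatment label hair depilation, and the 2 telogen groups, young and old, which share the model fit and enter the test of the stage difference, were labelled as untreated. Depilation, the plucking of resting hairs, brings on a new growth phase, so effects of the growth phase and of the depilation itself cannot be told apart. The labels give age only as young or old, and nothing in them ties a sample to a mouse of its own, so the spread behind each p-value is that among samples and may be partly technical. The stage is written in the table's columns as pk or nonpk, and pk was read as depilated early anagen, which is an inference from the labels. Mki67, a marker of dividing cells, stood at 2197 ± 165 CPM (counts scaled to the size of the library, as is usual; mean ± SD, n = 3) in the young pk libraries and at 342 ± 241 CPM in the young nonpk libraries.

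The hair follicle renews itself in cycles of rest (telogen), growth (anagen) and regression. Stem cells rest in the bulge, and a small cluster below them, the hair germ, lies against the dermal papilla and divides first when growth starts, under Wnt and hedgehog signals. The descendants of the germ build the matrix, which makes the hair shaft, and epithelial cells of the bulge and germ supply melanocyte stem cells with signals such as the kit ligand.

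The 6 early anagen libraries held 7291178 to 8062286 counts, so that depth was alike in all of them. The cells carried the markers of their gate. Krt15, whose promoter drives the reporter, stood at 2396, 2628 and 1964 CPM in the young and 3095, 3094 and 2522 CPM in the old early anagen libraries, with no call between them (log2 fold change, old minus young, of 0.32, SE 0.15, adjusted p = 0.309). Itga6, the integrin used in the sort, stood at 307, 331 and 233 CPM in young and 419, 395 and 363 CPM in old libraries and did not pass the test either (0.43, SE 0.15, adjusted p = 0.125). Ly6a, which encodes Sca-1, had at most 13 counts in any of the 12 libraries and was not tested. Defining markers of other cell types were scarce. Summed over 6 fibroblast markers the level was 18.6 to 67.8 CPM in young and 11.8 to 35.2 CPM in old libraries, and over 7 melanocyte markers it was 22.7 to 37.4 and 9.02 to 16.5 CPM. For 6 immune markers it was 7.30 to 15.8 and 2.50 to 9.30 CPM, for 4 endothelial markers at most 2.64 CPM, and for 3 markers of nerve and Schwann cells at most 6.28 CPM, with no count of any of the 3 in young replicate 1. Young replicate 3 lay apart from the other young libraries. It stood at -86.5 on the first principal component of the early anagen libraries, against -25.8 and -22.3 for the other young and 36.6 to 55.2 for the old libraries, and had the smallest share of counts from mitochondrial ribosomal RNA, 8.13%, against 10.4% to 11.3% in the other 5. For most of the genes and lists named below, the part of this library was measured by leaving it out.

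In early anagen 580 of the 16011 genes (3.62%) passed an adjusted p of 0.05 in edgeR's quasi-likelihood test with Benjamini-Hochberg adjustment, the test behind every adjusted p given here unless another is named. Of these, 381 (2.38%) were higher and 199 (1.24%) were lower in old cells, and 210 of the higher and 107 of the lower genes differed by over 2-fold. In all 580 the 3 old libraries lay on one side of the 3 young ones, a separation that 27.1% of all tested genes showed (13.6% with old higher and 13.5% with old lower). The median log2 fold change over all tested genes was 0.01, with 8136 positive and 7871 negative values. At an unadjusted p under 0.05, 1544 of the 16011 genes were higher and 1199 lower. The counts of each list below are to be read beside these values over all genes. The lower genes included transcription factors of the hair germ and matrix, hedgehog targets and extracellular matrix genes, and the higher genes included class I antigen presentation, bulge and upper follicle genes, as described list by list below. How far the higher genes outnumbered the lower ones depended on the fit: with DESeq2's size factors in edgeR 344 were higher and 238 lower. In a fit of the 6 early anagen libraries alone 662 genes were higher and 668 lower, and in limma-voom 424 and 414. The number of calls also rested on single libraries: it was 202 without young replicate 3, 234 without old replicate 1, 258 without old replicate 2 and 307 without old replicate 3.

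**Figure D1:**
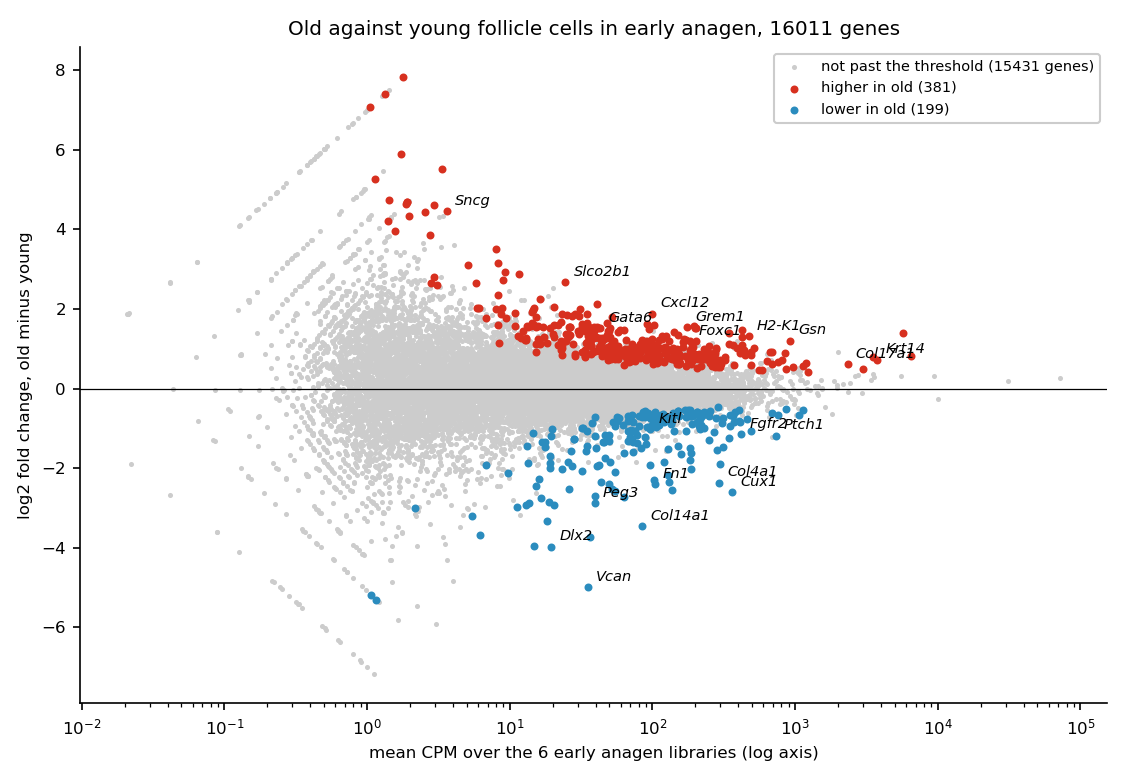
Each point is 1 of the 16011 tested genes, with its mean CPM over the 6 early anagen libraries on a log horizontal axis and the log2 fold change, old minus young, on the vertical axis. Red points are the 381 genes higher in old cells and blue points the 199 lower; Vcan, Dlx2 and Col14a1 lie among the largest decreases and Cxcl12, Slco2b1 and Sncg among the increases.

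Transcription factors of the hair germ and the early hair matrix were lower in old cells. Of 27 tested genes of the hair germ and early anagen progenitor list, 7 were lower and 0 were higher, where 1.24% and 2.38% of all genes were called in those directions. The median log2 fold change was -0.65, against 0.01 for all genes. At an unadjusted p under 0.05, 2 genes of the list were higher and 10 lower, and DESeq2 and limma-voom called 0 higher and 8 and 7 lower.

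Cux1, a homeodomain repressor expressed in the differentiating hair matrix, had the most certain difference. It stood at 483, 541 and 836 CPM in the young libraries and at 88.6, 85.1 and 131 CPM in the old ones. The lowest young library lay far above the highest old one, and the log2 fold change was -2.61 (SE 0.25, adjusted p = 5.11e-05). Dlx2 and Dlx3 belong to the distal-less family, and Dlx3 is needed for the hair shaft to form. Dlx2 stood at 33.0, 29.3 and 47.8 CPM in young and at 0.624, 3.64 and 2.71 CPM in old cells, a log2 fold change of -3.97 (SE 0.55, adjusted p = 0.00123). For Dlx3 the young libraries held 43.9, 55.9 and 107 CPM and the old ones 7.62, 9.17 and 14.7 CPM (-2.71, SE 0.37, adjusted p = 0.00123). The groups did not overlap in either gene, and young replicate 3 was the highest in both. Lef1, the DNA-binding partner of beta-catenin in Wnt signalling, spread more among the young libraries, with 19.8, 38.1 and 75.2 CPM, against 4.74, 8.29 and 9.92 CPM in old (-2.53, SE 0.46, adjusted p = 0.00541). Hoxc13, which switches on hair keratin genes, fell from 66.8 ± 36.9 to 17.8 ± 2.45 CPM (SD, n = 3; -1.91, SE 0.33, adjusted p = 0.0044). These 5 genes passed in every alternative fit and without any single library, young replicate 3 included. Msx2, another homeobox gene of the matrix, fell from 33.1 ± 11.3 to 4.60 ± 0.903 CPM (-2.85, SE 0.59, adjusted p = 0.012). Its call was lost without young replicate 3 or old replicates 1 or 3, where the adjusted p reached 0.0774.

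Cux1, Dlx2 and Dlx3 were low in resting skin of both ages. Cux1 stood at 68.2 ± 21.8 CPM in young and 50.7 ± 4.75 CPM in old telogen, Dlx2 at 2.05 ± 1.02 and 1.21 ± 0.333 CPM, and Dlx3 at 12.9 ± 3.18 and 19.7 ± 6.74 CPM. None of the 3 passed the test between ages there (adjusted p = 0.478, 0.637 and 0.502). The young early anagen values lay far above those of telogen, and the old ones much closer to them. For Cux1 every old early anagen library was still above every old telogen library (47.3, 48.6 and 56.1 CPM). The difference between the stages in the age effect passed its own test for all 3, at -2.18 (adjusted p = 0.00612) for Cux1, -3.32 (0.00597) for Dlx3 and -3.22 (0.0475) for Dlx2 on the log2 scale. The stage difference of Dlx2 was lost without any one library but young telogen replicate 1 or old early anagen replicate 2 (adjusted p up to 0.139), and those of Cux1 and Dlx3 held without each of the 12. Lef1 stood at 16.1 ± 2.50 CPM in young telogen, near the lowest young early anagen library, and at 11.8 ± 6.16 CPM in old telogen. Its stage difference (adjusted p = 0.113) and that of Msx2 (0.411) did not pass, and that of Hoxc13 did (-2.48, 0.0129). Over all tested genes 1.56% passed that test, and 7 of the 27 listed genes did. Other genes of the list did not pass in early anagen. Lgr5, a stem cell marker shared by the lower bulge and the germ, stood at 169, 259.7 and 219 CPM in young and 166, 184 and 178 CPM in old cells (-0.29, SE 0.19, adjusted p = 0.488), and Cdh3, the P-cadherin that marks the germ, at 243 ± 46.2 and 203 ± 19.6 CPM (-0.26, SE 0.17, adjusted p = 0.482). Axin2, a feedback target of Wnt signalling, stood at 105 ± 26.5 and 91.1 ± 12.8 CPM (-0.21, SE 0.19, adjusted p = 0.648). Because these were bulk samples, fewer cells of a type and less RNA per cell cannot be told apart in any of these values.

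**Figure D2:**
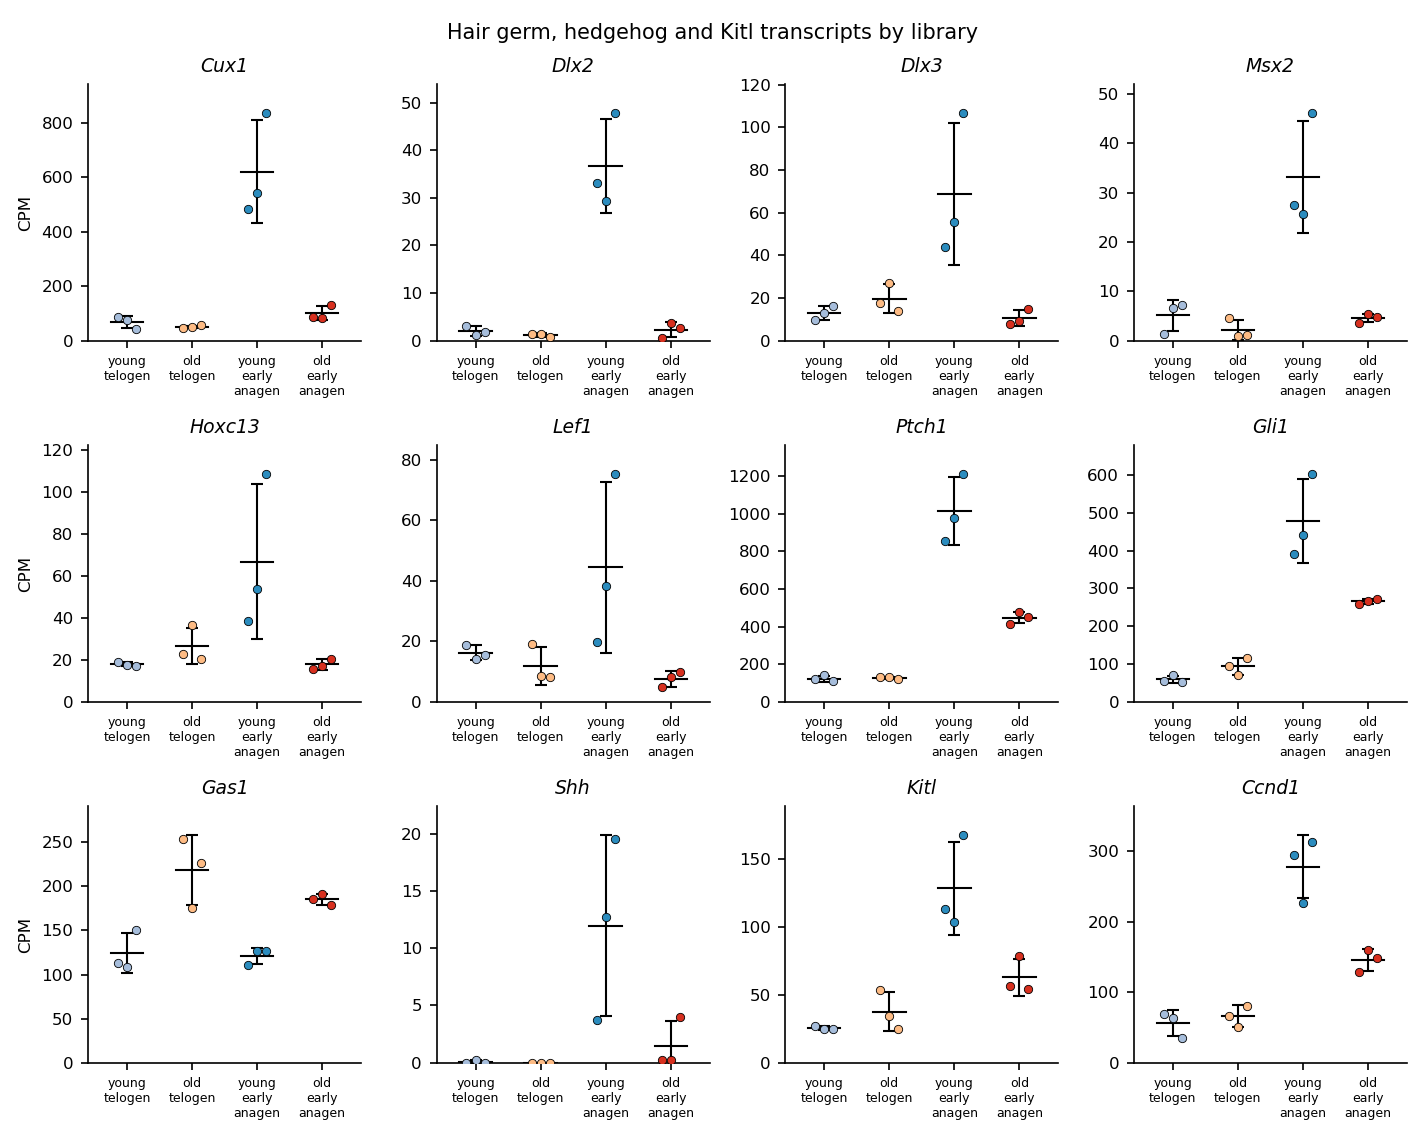
Each panel gives the CPM of 1 gene on a linear axis from 0 in the 4 groups, with 1 point per library and the mean ± SD (n = 3) as a line and bar. In Cux1, Dlx2, Dlx3 and Ptch1 the 3 young early anagen points lie above all other points. The old early anagen points lie close to the telogen levels for Dlx2 and Dlx3 and between both levels for Ptch1 and Gli1. For Cux1 they lie above the old telogen points and far below the young early anagen ones.

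Genes that hedgehog signals induce were lower in old cells. Of 21 tested genes of the pathway 3 were lower (Ptch1, Gli1 and Ccnd1) and 1 was higher (Gas1), the median log2 fold change was -0.35, and at an unadjusted p under 0.05 the counts were 11 lower and 2 higher. Over all tested genes 1.24% were called lower and 2.38% higher. The ligand itself, Shh, was scarce, at 3.71, 12.7 and 19.5 CPM in young and 0.250, 0.251 and 3.99 CPM in old libraries. Its groups overlapped and it did not pass the test (-2.99, SE 1.10, adjusted p = 0.163). Shh was called in 3 of 8 alternative fits and in 1 of 6 fits with an early anagen library left out.

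Ptch1, the receptor of hedgehog ligands and at once a direct target of the pathway, stood at 854, 977 and 1212 CPM in young and 416, 476 and 451 CPM in old cells. The lowest young library was well above the highest old one, and the log2 fold change was -1.18 (SE 0.14, adjusted p = 0.000431). In telogen Ptch1 did not pass (123 ± 15.7 CPM in young, 127 ± 7.12 CPM in old), and the stage difference was -1.23 (SE 0.20, adjusted p = 0.0074). Gli1, the transcription factor that the pathway induces, stood at 390.0, 441 and 603 CPM in young and 257, 266 and 273 CPM in old cells (-0.85, SE 0.19, adjusted p = 0.0171). In telogen its level was 59.1 ± 9.51 CPM in young and 93.7 ± 22.0 CPM in old, in the opposite order, and the stage difference of -1.51 (adjusted p = 0.00901) held without any single library of the 12. Every early anagen library of either age thus held more Gli1 than every telogen library of its age. Ccnd1, cyclin D1, stood at 295, 227 and 313 CPM in young and 128, 160.2 and 149 CPM in old (-0.93, SE 0.22, adjusted p = 0.0282). Except for Ptch1, these calls rested on few libraries. Gli1 was lost without young replicate 3 or any old library (adjusted p up to 0.11), Ccnd1 without any library but young replicate 2 (up to 0.133), and Gas1 without any one of the 6 (up to 0.15).

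The coreceptors of the pathway had positive values. Gas1, which binds hedgehog ligands and presents them to Ptch1, was higher in old cells, at 121 ± 9.09 CPM in young and 185 ± 6.33 CPM in old (0.61, SE 0.16, adjusted p = 0.046). Cdon, a coreceptor of the same kind, stood at 37.0 ± 9.42 and 64.9 ± 2.27 CPM (0.81, SE 0.23, adjusted p = 0.0616) and Boc at 189.8 ± 48.2 and 242 ± 15.5 CPM (0.35, SE 0.17, adjusted p = 0.31), and neither passed. Smo, the signal transducer, stood at 214 ± 14.3 and 167 ± 5.05 CPM (-0.35, SE 0.13, adjusted p = 0.161), and Hhip, a secreted inhibitor that is also a target, at 21.2 ± 6.72 and 2.35 ± 2.69 CPM (-3.17, SE 0.93, adjusted p = 0.0702). The groups were separate in each of these 4 genes, as in 27.1% of all genes.

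Kitl, the kit ligand on which melanocyte stem cells depend, was lower in old cells of early anagen. It stood at 114, 104 and 168 CPM in young and 56.6, 78.9 and 54.1 CPM in old libraries, with no overlap (-1.02, SE 0.25, adjusted p = 0.0326). In telogen the level was 25.6 ± 1.44 CPM in young and 37.7 ± 14.6 CPM in old (adjusted p = 0.354), and the difference between stages was -1.58 (SE 0.36, adjusted p = 0.0391), lost without young telogen replicates 2 or 3, old telogen replicate 1, young early anagen replicate 3, or old early anagen replicates 1 or 3 (up to 0.113). The early anagen call was lost without young replicate 3, old replicate 1 or old replicate 3 (adjusted p up to 0.197) and in limma on log2(FPKM + 1). Of 18 tested niche signals for melanocytes, Kitl was the 1 that was lower and 2 were higher, the chemokine Cxcl12 and the collagen Col17a1. Over all tested genes 1.24% were called lower and 2.38% higher. Cxcl12 had the smallest p of all higher genes. It stood at 41.2, 50.5 and 35.9 CPM in young and 168, 174 and 129 CPM in old cells (1.89, SE 0.18, adjusted p = 5.11e-05), and it was also higher in old telogen (152 ± 16.1 against 311 ± 51.9 CPM, adjusted p = 0.00421). Other ligands of the list were low and did not pass. Edn1 stood at 19.3, 5.88 and 15.2 CPM in young and 2.37, 4.15 and 6.57 CPM in old (adjusted p = 0.355), Edn2 at 26.7, 21.0 and 23.4 CPM in young and 6.24, 12.3 and 6.57 CPM in old (adjusted p = 0.35), and Wnt10b at 3.84, 4.94 and 12.3 CPM in young and 2.50, 1.26 and 1.42 CPM in old (adjusted p = 0.323). Edn2 was called in 2 of 9 alternative fits, and Edn1 and Wnt10b in 0. Tgfb2, which holds melanocyte stem cells at rest, did not pass (adjusted p = 0.761). Mitf, the transcription factor known from melanocytes, was higher at 27.8, 26.5 and 19.2 CPM in young and 33.3, 42.3 and 52.3 CPM in old cells (0.80, SE 0.21, adjusted p = 0.0433), while Dct, a pigment cell enzyme, had 52, 70 and 201 counts in the young and 12, 31 and 16 in the old libraries. Tyr had at most 3 and Sox10 at most 5 counts in any of these 6 libraries. The Mitf call was lost in 4 of 9 alternatives and without 4 of 6 libraries in turn (young replicates 2 and 3, old replicates 2 and 3; adjusted p up to 0.209).

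Genes of the basement membrane and matrix split into a lower and a higher group. Of 36 tested genes 7 were lower (Tnc, Fras1, Fn1, Col4a1, Col4a2, Npnt and Lamc1) and 3 were higher (Lamb3, Col17a1 and Plec). Among all tested genes 1.24% and 2.38% were called in those directions. The list's median was -0.04. The lower genes encode matrix that is deposited around the growing follicle, and the higher ones are parts of the hemidesmosome, which anchors basal cells, and its laminin. Col4a1 and Col4a2, whose chains form the main network of the basement membrane and whose genes lie head to head, moved alike. Col4a1 stood at 399, 422 and 649 CPM in young and 62.7, 96.1 and 126 CPM in old cells (-2.37, SE 0.28, adjusted p = 0.000389). Col4a2 stood at 213, 203 and 307 CPM in young and 57.7, 69.0 and 106 CPM in old (-1.64, SE 0.24, adjusted p = 0.00184). In both, every young library was above every old one. In the RefSeq table of mouse promoters (GRCm38.p6), whose windows run from 250 bases before to 50 after the start, the windows of the 2 genes lie on opposite strands and share 78 bases.

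Further matrix genes were lower. Fn1, fibronectin, stood at 98.1, 144 and 280.3 CPM in young and 28.7, 22.2 and 47.5 CPM in old cells (-2.41, SE 0.42, adjusted p = 0.00446). Tnc, tenascin C, stood at 102, 128 and 101 CPM in young and 13.5, 15.0 and 21.5 CPM in old (-2.73, SE 0.42, adjusted p = 0.00234), and Fras1, an anchor protein of the epidermal basement membrane, at 161, 217 and 328 CPM in young and 29.5, 17.8 and 72.7 CPM in old (-2.56, SE 0.43, adjusted p = 0.00385). The age difference of these 3 was also present in telogen, at -4.41 for Fn1 (adjusted p = 0.00042), -2.62 for Tnc (0.00399) and -2.02 for Fras1 (0.0393). Lamc1, a laminin chain, stood at 288 ± 14.2 and 142 ± 15.0 CPM (-1.02, SE 0.16, adjusted p = 0.00289). Npnt, nephronectin, stood at 189.9 ± 30.0 and 66.4 ± 14.7 CPM (-1.52, SE 0.35, adjusted p = 0.0219), with an adjusted p of up to 0.114 without young replicates 2 or 3 or old replicates 1 or 2. Fn1, Tnc, Fras1, Lamc1, Col4a1 and Col4a2 passed without any single library.

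Col14a1, a collagen that coats fibrils, had the smallest p of all 16011 genes. It stood at 169.8, 137 and 159 CPM in young and 12.9, 13.7 and 15.7 CPM in old early anagen, a log2 fold change of -3.46 (SE 0.21, adjusted p = 9.93e-08). In telogen it stood at 3.34 ± 0.109 CPM in young and 3.49 ± 0.749 CPM in old cells, far below the young early anagen level, and the stage difference was -3.52 (SE 0.31, adjusted p = 2.7e-05). Vcan, the proteoglycan versican, showed 53.7, 61.7 and 88.7 CPM in young and 0.125, 0.754 and 5.54 CPM in old cells (-4.99, SE 0.81, adjusted p = 0.00295). Both are also made by dermal cells. In a fibroblast and dermal papilla list of 11 tested genes, 2 were lower, Vcan and Col5a1 (124 ± 7.87 against 53.2 ± 12.1 CPM, -1.22, SE 0.28, adjusted p = 0.0219), and 0 higher. Over all tested genes 1.24% were called lower and 2.38% higher. At an unadjusted p under 0.05 there were 2 higher and 4 lower, and DESeq2 and limma-voom called 0 higher and 4 and 2 lower. Summed over the list, the level ran from 323 to 397 CPM in young and from 222 to 264 CPM in old libraries. Col1a1, the main fibroblast collagen, had 68, 59 and 143 counts in the young and 26, 41 and 47 in the old libraries. Every young library was above every old one, and the gene did not pass the test (-1.24, SE 0.63, adjusted p = 0.33). Col3a1 had at most 2 counts in each early anagen library and Pdgfra at most 30. The part of dermal cells in the Vcan, Col14a1 and Col5a1 values was not tested. The Col5a1 call was lost without young replicates 1 or 3 or old replicates 1 or 2 (adjusted p up to 0.112).

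On the higher side, Col17a1, the hemidesmosomal collagen known for its loss in aged follicle stem cells, stood at 1796, 2179 and 1531 CPM in young and 2735, 2932 and 2806 CPM in old libraries (0.62, SE 0.13, adjusted p = 0.0157). Its mRNA was thus higher in the old sort, also in telogen (0.55, adjusted p = 0.0426). The protein was not measured, so its loss was not tested. Lamb3 stood at 188 ± 41.4 and 325 ± 17.2 CPM (0.79, SE 0.16, adjusted p = 0.0101) and Plec, plectin, at 2489 ± 158 and 3481 ± 167 CPM (0.48, SE 0.12, adjusted p = 0.0323). All 3 calls were lost without young replicate 3. Col17a1 was also lost without old replicate 2, and Plec without young replicate 2 or any old library, with adjusted p up to 0.0834 for Col17a1, 0.063 for Lamb3 and 0.139 for Plec.

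A few growth factor genes were lower. Of 34 tested genes of the FGF, EGF and ectodysplasin list 3 were lower and 0 higher (4 higher and 7 lower at an unadjusted p under 0.05, and 0 higher in DESeq2 and limma-voom), with a median of -0.07. Among all tested genes 1.24% were called lower and 2.38% higher. Fgfr2, whose epithelial form receives FGF7 and FGF10 from the dermis, stood at 546, 551 and 637 CPM in young and 245, 295 and 239.8 CPM in old cells (-1.15, SE 0.14, adjusted p = 0.000389). It was lower in old telogen as well (389 ± 54.3 against 243 ± 11.9 CPM, adjusted p = 0.0155). Pdgfa, a ligand for dermal cells, stood at 193 ± 38.5 and 92.3 ± 16.3 CPM (-1.07, SE 0.23, adjusted p = 0.0157). Fgfr3 stood at 107, 131 and 145 CPM in young and 68.5, 91.1 and 75.5 CPM in old early anagen (-0.70, SE 0.17, adjusted p = 0.0294), but was higher in old telogen (119.5 ± 14.6 against 212 ± 30.4 CPM, adjusted p = 0.0164), and the stage difference was -1.53 (adjusted p = 0.00612). Without young replicate 3 or old replicates 1 or 3 the calls of Pdgfa and Fgfr3 were lost, that of Fgfr3 also without young replicate 2 (adjusted p up to 0.0959 and 0.148).

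In the Wnt list 2 of 40 tested genes were higher and 1, Lef1, was lower, where 2.38% and 1.24% of all genes were called in those directions. Dkk3, a secreted protein of the Dickkopf family that is abundant in the bulge, stood at 82.9, 101 and 77.8 CPM in young and 155, 157 and 189.7 CPM in old (0.94, SE 0.18, adjusted p = 0.0083), and the receptor Fzd6 at 83.6 ± 8.23 and 131 ± 15.2 CPM (0.64, SE 0.15, adjusted p = 0.0201). In the BMP and TGF-beta list 3 of 39 were higher and 2 lower, with a median of -0.11. The higher ones were the BMP antagonist Grem1, the activin antagonist Fst (47.0, 60.5 and 27.9 CPM in young, 111, 104 and 80.5 CPM in old, 1.13, SE 0.25, adjusted p = 0.0193) and the activin subunit Inhbb (64.3 ± 2.38 CPM in young and 137 ± 39.5 CPM in old, 1.09, SE 0.26, adjusted p = 0.0267). The lower ones were Id3, an inhibitor of differentiation that BMP signals induce (20.8, 37.7 and 61.9 CPM in young, 8.74, 13.3 and 11.3 CPM in old, -1.85, SE 0.43, adjusted p = 0.0219), and Ltbp1, which stores latent TGF-beta in the matrix (103 ± 13.0 CPM in young and 41.8 ± 10.2 CPM in old, -1.30, SE 0.25, adjusted p = 0.00779). In the Notch list 2 of 22 were higher, Dtx4 (52.7, 22.9 and 18.5 CPM in young, 95.6, 86.3 and 70.6 CPM in old, 1.42, SE 0.32, adjusted p = 0.0206) and the receptor Notch3 (52.4 ± 10.9 CPM in young and 106 ± 4.37 CPM in old, 1.02, SE 0.27, adjusted p = 0.0435), and 0 lower (8 higher and 1 lower at an unadjusted p under 0.05, 2 higher and 0 lower in DESeq2 and limma-voom). Young replicate 3 carried weight here too: without it the calls of Dkk3, Fzd6, Fst, Inhbb, Id3, Dtx4 and Notch3 were lost, and Ltbp1 was lost without old replicate 1 (0.0516). Other single libraries also ended the calls of Fzd6, Fst, Inhbb, Id3, Dtx4 and Notch3, old replicate 1 in all 6 and old replicate 2 in all 6. Young replicate 1 did so for Fzd6 and Inhbb, young replicate 2 for Inhbb, Dtx4 and Notch3, and old replicate 3 for Id3 and Notch3, with adjusted p up to 0.0505 for Dkk3, 0.116 for Fzd6, 0.0886 for Fst, 0.157 for Inhbb, 0.139 for Id3, 0.107 for Dtx4 and 0.167 for Notch3.

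Nearly all genes of cell division had negative values, and how many passed the test depended on the fit. Among all tested genes 1.24% were called lower and 2.38% higher. Of 48 tested cell cycle genes, 46 had a negative log2 fold change and the median was -0.66, but 2 were called, Ccnd1 and its partner kinase Cdk4 (160.1, 172 and 192 CPM in young, 92.0, 108 and 99.6 CPM in old, -0.80, SE 0.18, adjusted p = 0.0219), and 0 were higher, also at an unadjusted p under 0.05 and in DESeq2 and limma-voom. Lower were 18 at an unadjusted p under 0.05, 8 in DESeq2, 18 in limma-voom, 25 without a filter on low counts and 29 in a fit of the early anagen libraries alone. None of the list remained without young replicate 3 or without any 1 of the old libraries (Cdk4 had an adjusted p of up to 0.114; it was also lost without young replicate 2). Mki67, at 2075, 2384 and 2132 CPM in young and 1474, 1455 and 1321 CPM in old, had separate groups and did not pass (-0.63, SE 0.42, adjusted p = 0.499). It was called without the filter on low counts (adjusted p = 0.000698) and with the early anagen libraries alone, and not in the other 7 alternatives. The sum over the list ran from 9339 to 9899.7 CPM in the young and from 5839 to 6706 CPM in the old early anagen libraries, and reached at most 3335 CPM in telogen.

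Replication-dependent histones, whose mRNAs are made during DNA replication, had the same direction. The share called lower was 1.24% over all tested genes. Of 60 histones tested, 59 had negative values, the median was -1.08 and 12 were lower, with 0 higher in edgeR, DESeq2, limma-voom or at an unadjusted p under 0.05. Lower by DESeq2 were 23 and by limma-voom 45, and without young replicate 1, young replicate 3, old replicate 2 or old replicate 3 in turn the edgeR count was 4. H1f5, a linker histone, stood at 467, 365 and 439 CPM in young and 177, 144 and 117 CPM in old (-1.54, SE 0.30, adjusted p = 0.00861), and H4c18 at 51.6, 35.1 and 69.1 CPM in young and 15.0, 10.7 and 11.3 CPM in old (-2.07, SE 0.37, adjusted p = 0.00506). Histone genes are near-identical copies among which reads may be split, so single members are uncertain. Neither the cell cycle nor the histone list held a gene with a stage difference, and their telogen medians were negative as well (-0.91 and -0.65). In the list of DNA double-strand break repair 1 of 39 genes was lower, Parp1 (137, 155 and 230.4 CPM in young, 80.7, 119 and 82.3 CPM in old, -0.89, SE 0.24, adjusted p = 0.0473; up to 0.274 without young replicates 2 or 3 or old replicates 1 or 3), and 0 were higher. In this list 32 genes had negative values, with a median of -0.42. At an unadjusted p under 0.05, 11 were lower and 1 higher. DESeq2 called 3 lower, limma-voom 8 and a fit of the early anagen libraries alone 10, with 0 higher in each, while limma on log2(FPKM + 1) and upper quartile factors called 0.

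Several bulge stem cell genes were higher in old cells. Of 23 tested, 5 were higher (Grem1, Foxc1, Nfatc1, Dkk3 and Col17a1) and 1 was lower (Tbx1), and the median was 0.42. The shares over all tested genes were 2.38% higher and 1.24% lower. Grem1, which binds and blocks BMPs, stood at 94.6, 102 and 72.8 CPM in young and 228, 252 and 303 CPM in old cells (1.54, SE 0.23, adjusted p = 0.00176). Its telogen value was close to this, at 1.51 (adjusted p = 0.00256). Nfatc1, a transcription factor that keeps bulge cells quiescent, stood at 257, 338 and 181 CPM in young and 524, 547 and 515 CPM in old (1.03, SE 0.20, adjusted p = 0.00822), again with a like value in telogen (0.99, adjusted p = 0.0155). Foxc1, which restrains the activation of stem cells, stood at 145, 110.1 and 78.8 CPM in young and 265, 219 and 278 CPM in old early anagen (1.19, SE 0.20, adjusted p = 0.00318). In telogen it did not pass (294 ± 41.0 and 269 ± 40.7 CPM), and the stage difference was 1.32 (adjusted p = 0.023; up to 0.0664 without young early anagen replicate 2, old early anagen replicates 1 or 3, or old telogen replicate 3). The young early anagen libraries were thus the low group for Foxc1. Tbx1, a T-box factor of the bulge, was 308 ± 19.5 CPM in young and 189.7 ± 23.2 CPM in old (-0.70, SE 0.16, adjusted p = 0.0188, up to 0.115 without young replicates 2 or 3 or old replicates 1 or 2). Cd34, a surface marker of the bulge, stood at 60.1, 88.9 and 40.8 CPM in young and 59.1, 69.0 and 127 CPM in old, with overlapping groups (0.42, SE 0.27, adjusted p = 0.465). Grem1, Nfatc1 and Foxc1 passed in every alternative fit and without any single library, and without young replicate 3 the list held 3 higher genes.

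Genes of the upper follicle, the sebaceous gland and the epidermis leaned the same way. The shares over all tested genes were 2.38% higher and 1.24% lower. Of 32 tested upper follicle and sebaceous genes 29 had positive values and the median was 0.66, with 3 higher and 0 lower (0 lower also at an unadjusted p under 0.05 and in DESeq2 and limma-voom). The higher genes were 10 at an unadjusted p under 0.05, 3 in DESeq2, 6 in limma-voom, 8 with the early anagen libraries alone, 13 without a filter on low counts, 5 with a replicate block, 7 without young replicate 1 and 2 without young or old replicate 3. Gata6, which marks cells of the sebaceous duct, stood at 34.8, 16.7 and 15.1 CPM in young and 74.4, 58.9 and 58.2 CPM in old (1.52, SE 0.28, adjusted p = 0.00541). Ly6d stood at 75.7, 60.8 and 63.2 CPM in young and 166, 167 and 165 CPM in old (1.32, SE 0.21, adjusted p = 0.00248), and Plet1, which marks the junction zone, at 62.2 ± 5.84 and 136 ± 43.7 CPM (1.13, SE 0.23, adjusted p = 0.0116; lost without young replicate 3 or old replicate 3, up to 0.0725). The order was the reverse in telogen, where the list's median was -0.84 and 9 genes were lower in old cells. Over all tested genes 1.03% were called lower in old telogen. Gata6 stood at 108 ± 15.2 CPM in young and 50.0 ± 12.2 CPM in old telogen, and the stage difference was 2.64 (adjusted p = 0.00439) for Gata6 and 2.13 (0.00262) for Ly6d. Of 32 epidermal genes 31 had positive values, with a median of 0.52, 2 higher and 0 lower (0 lower by every tool and at an unadjusted p under 0.05). Higher were 10 at an unadjusted p under 0.05, 10 with the early anagen libraries alone, 13 without a filter and 0 in limma on log2(FPKM + 1). The 2 genes were Krt14, the keratin of basal cells (2994, 3021 and 2510.4 CPM in young, 5065, 5129.8 and 3948 CPM in old, 0.73, SE 0.14, adjusted p = 0.00776; 0.0815 in limma on log2(FPKM + 1)), and Calml3 (141 ± 33.6 CPM in young and 256 ± 35.9 CPM in old, 0.86, SE 0.21, adjusted p = 0.0329; up to 0.165 without young replicate 3 or any old library).

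The summed level of the upper follicle and sebaceous list was 6293 to 7838 CPM in young and 8318 to 11405 CPM in old early anagen libraries, and that of the epidermal list 10463 to 12253 and 15151 to 17732 CPM. Mc5r, a receptor of sebaceous cells, stood at 11.4, 2.81 and 1.51 CPM in young and 6.99, 3.52 and 9.02 CPM in old, and the suprabasal keratin Krt10 at 636 ± 331 and 795 ± 297 CPM, both without a call. The part of such cells in the other age differences was not tested.

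Genes of class I antigen presentation, by which cells display peptides to killer T cells, were higher in old cells. Of 37 tested genes of the interferon and antigen presentation list 8 were higher and 0 lower. Among all tested genes 2.38% and 1.24% were called in those directions. The list's median was 0.47. At an unadjusted p under 0.05 the counts were 13 higher and 2 lower, DESeq2 called 11 higher and 1 lower, and limma-voom 10 higher and 0 lower. The promoters of 4 of these genes are shown because class I genes and B2m are known to share upstream elements on which NF-kappa B, interferon regulatory factors and the coactivator Nlrc5 act. They are RefSeq sequences of the mouse reference (GRCm38.p6), the 250 bases before the start, 5′ to 3′ on the gene's strand. Capitals mark GGGGATTCCC (a kappa B site), AGTTTCACTT (an interferon-stimulated response element), both with their letters as read from the H2-K1 window, TGACG (the core of the X2 box) and ATTGG or CCAAT (the Y box), searched on both strands.

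H2-K1: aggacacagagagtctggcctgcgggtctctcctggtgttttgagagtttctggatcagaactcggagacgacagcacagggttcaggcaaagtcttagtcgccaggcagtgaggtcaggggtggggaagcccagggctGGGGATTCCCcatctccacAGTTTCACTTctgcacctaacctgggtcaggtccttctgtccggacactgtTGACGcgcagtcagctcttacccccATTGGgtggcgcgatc

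H2-D1: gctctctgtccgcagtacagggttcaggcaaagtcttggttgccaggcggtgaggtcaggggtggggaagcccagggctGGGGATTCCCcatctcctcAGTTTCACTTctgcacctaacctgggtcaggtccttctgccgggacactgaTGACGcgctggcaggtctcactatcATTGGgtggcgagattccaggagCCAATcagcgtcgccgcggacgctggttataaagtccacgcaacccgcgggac

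H2-Q4: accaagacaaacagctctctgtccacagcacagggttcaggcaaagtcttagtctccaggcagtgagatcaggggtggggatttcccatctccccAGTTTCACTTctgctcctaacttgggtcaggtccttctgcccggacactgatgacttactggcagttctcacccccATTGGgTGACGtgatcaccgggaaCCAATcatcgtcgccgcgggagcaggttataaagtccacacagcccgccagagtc

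B2m: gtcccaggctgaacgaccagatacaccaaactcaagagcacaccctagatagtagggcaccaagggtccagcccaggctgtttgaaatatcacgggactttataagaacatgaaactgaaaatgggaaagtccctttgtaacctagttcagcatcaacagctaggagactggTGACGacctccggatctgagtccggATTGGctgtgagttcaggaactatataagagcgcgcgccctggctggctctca

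The windows lie at chr17:34000348-34000597 (minus strand), chr17:35262844-35263093 (plus), chr17:35379367-35379616 (plus) and chr2:122147437-122147686 (plus). For H2-K1 the table holds more than 1 window and the first was used. In windows of this length the first motif occurred in 0.0852% of 32851 promoters, the second in 0.128%, TGACG in 17.8% and ATTGG in 33.8%, so the first and second are rare and the short ones common. H2-K1 and H2-D1 hold all 4 motifs and H2-Q4 all but the first. In H2-K1, H2-D1 and B2m TGACG lies before ATTGG, at 41 to 37 against 16 to 12 bases before the start in H2-K1. In H2-Q4 it lies after ATTGG, at 73 to 69 against 79 to 75. The H2-Q4 match is thus to the letters of the X2 core and not at its place in the other 3. B2m holds TGACG and ATTGG. A match is a description of the letters, not of binding, and a window with no match may hold other forms of a site.

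The class I heavy chains differed most clearly. H2-K1 stood at 410.3, 214 and 186 CPM in the young libraries and at 715, 648 and 662 CPM in the old ones (1.32, SE 0.21, adjusted p = 0.00262). H2-D1 stood at 395, 246 and 241 CPM in young and 588, 589 and 493 CPM in old (0.92, SE 0.17, adjusted p = 0.00563), and H2-Q4 at 61.7, 49.7 and 40.5 CPM in young and 123, 116 and 115 CPM in old (1.22, SE 0.17, adjusted p = 0.00123). In each gene young replicate 1 was the highest young library and still below every old one. Class I genes are close paralogs, so reads may be split among them and the single values are uncertain. B2m, the light chain that they share and a single gene, stood at 318, 185 and 147 CPM in young and 451, 469 and 507 CPM in old (1.13, SE 0.20, adjusted p = 0.00511). These 4 genes passed without any single library. Tap2, a subunit of the peptide transporter, stood at 40.2, 25.5 and 15.2 CPM in young and 71.2, 56.8 and 60.8 CPM in old (1.22, SE 0.26, adjusted p = 0.0151), and its partner Tap1, at 72.6 ± 27.4 and 120.2 ± 7.20 CPM, did not pass (0.73, SE 0.22, adjusted p = 0.0741). Psmb8, a subunit of the immunoproteasome, stood at 21.3 ± 10.9 CPM in young and 52.4 ± 6.15 CPM in old (1.30, SE 0.29, adjusted p = 0.0193). Nlrc5, the coactivator, stood at 95.1, 81.0 and 53.2 CPM in young and 165, 134 and 163 CPM in old (1.01, SE 0.23, adjusted p = 0.021), and Ddx58, the RNA sensor RIG-I, at 14.1 ± 0.961 and 29.8 ± 6.07 CPM (1.08, SE 0.27, adjusted p = 0.0337). The last 4 calls (Tap2, Psmb8, Nlrc5 and Ddx58) were lost without young replicate 3 and without old replicate 1. Psmb8 was also lost without young replicate 2 or old replicate 2, Nlrc5 without old replicate 3 and Ddx58 without any library, with adjusted p up to 0.0724, 0.11, 0.109 and 0.176 in that order. The list's count was 4 without young replicate 3 or without old replicate 1.

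Among the 4 groups, young early anagen was the low one. H2-K1 stood at 656 ± 40.9 CPM in young telogen, 647 ± 22.9 CPM in old telogen and 675 ± 35.3 CPM in old early anagen, against 270.1 ± 122 CPM in young early anagen. Its stage difference was 1.34 (SE 0.29, adjusted p = 0.0311) and that of H2-Q4 was 1.03 (0.036). Both stage differences were lost without young replicate 2 or 3 of early anagen, any old early anagen library, young telogen replicate 2, or old telogen replicates 1 or 3 (adjusted p up to 0.0841 and 0.0995). Outside class I the list's genes did not all behave alike. Ddx58 was called higher, as given above, while Irf7 and Cxcl10, which had few counts, did not pass. Over the whole list 28 genes had positive and 9 negative values. Irf7, a transcription factor, stood at 2.50 ± 2.05 CPM in young and 3.16 ± 1.54 CPM in old (0.34, SE 0.94, adjusted p = 0.912), and Cxcl10 at 4.37 ± 3.83 and 1.63 ± 1.74 CPM (-1.41, SE 0.99, adjusted p = 0.529). Of 12 tested immune cell genes 0 were called in either direction (at an unadjusted p under 0.05, 1 higher and 2 lower; DESeq2 1 lower, limma-voom 0), and Ptprc, carried by all white blood cells, had 0, 38 and 16 counts in the young and 1, 0 and 0 in the old libraries.

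**Figure D3:**
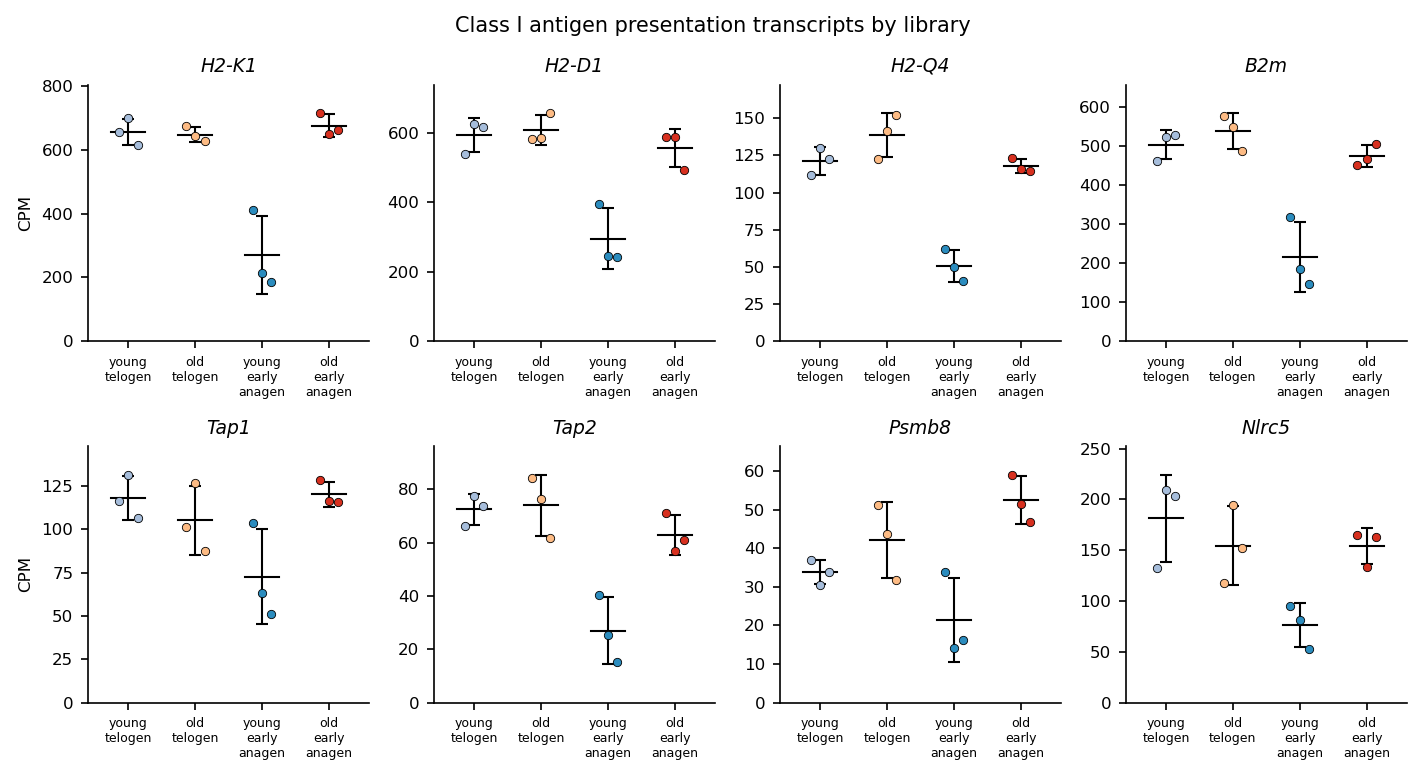
CPM of 8 antigen presentation genes in the 4 groups on linear axes from 0, with 1 point per library and mean ± SD (n = 3). Young early anagen has the lowest mean in every panel, and the old early anagen points mostly lie near the telogen points of both ages. In Psmb8 they lie above every young telogen point, and young early anagen replicate 1 lies among the young telogen points.

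Some genes of lipid and sugar metabolism were higher in old cells. The shares over all tested genes were 2.38% higher and 1.24% lower. In the arachidonate and prostaglandin list 4 of 38 genes were higher and 0 lower (9 higher and 4 lower at an unadjusted p under 0.05, 6 higher in DESeq2, 4 in limma-voom and 0 lower in both), with a median of 0.43. They were the epoxygenase Cyp2j6 (8.66, 7.75 and 3.27 CPM in young, 20.6, 20.7 and 17.7 CPM in old, 1.58, SE 0.35, adjusted p = 0.0193), the prostaglandin transporter Slco2a1 (16.9 ± 4.34 CPM in young and 43.9 ± 6.24 CPM in old, 1.37, SE 0.29, adjusted p = 0.0144), the lipid peroxidase Gpx4 (32.7 ± 10.8 CPM in young and 66.4 ± 13.1 CPM in old, 1.02, SE 0.27, adjusted p = 0.0437) and the epoxide hydrolase Ephx1 (108, 107 and 92.6 CPM in young, 163, 174 and 177 CPM in old, 0.74, SE 0.13, adjusted p = 0.00511). Ptgs2, the inducible cyclooxygenase, was at 1.73, 1.60 and 1.76 CPM in young and 1.75, 2.64 and 6.44 CPM in old and did not pass (adjusted p = 0.625). In the glycolysis and hypoxia list 4 of 30 were higher and 0 lower (7 higher and 1 lower at an unadjusted p under 0.05, 4 higher and 0 lower in DESeq2 and limma-voom). The glucose transporter Slc2a1 stood at 88.0, 70.6 and 48.2 CPM in young and 177, 176 and 138 CPM in old (1.25, SE 0.22, adjusted p = 0.00446), and the oxygen sensor Egln3 at 19.4, 17.1 and 12.3 CPM in young and 61.6, 41.1 and 30.4 CPM in old (1.44, SE 0.30, adjusted p = 0.0116). Hexokinase Hk1 (0.77, SE 0.21, adjusted p = 0.0466) and phosphofructokinase Pfkp (0.64, SE 0.14, adjusted p = 0.0167) were the others. Without young replicate 3, 1 gene of each list remained called, Ephx1 and Slc2a1, which were the only members of these 8 to pass without any single library. The calls of Gpx4, Hk1, Pfkp, Egln3 and Cyp2j6 were lost without old replicate 1 as well, and those of Gpx4, Hk1, Pfkp, Slco2a1 and Cyp2j6 without old replicate 2. Gpx4, Hk1 and Pfkp were also lost without old replicate 3, and Gpx4 and Hk1 without young replicate 2, with adjusted p up to 0.209 for Gpx4, 0.196 for Hk1, 0.096 for Pfkp, 0.0864 for Egln3, 0.0886 for Cyp2j6 and 0.0862 for Slco2a1.

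Among chaperones 2 of 35 genes were lower, Hsph1 (104, 128 and 162 CPM in young, 49.1, 50.0 and 49.7 CPM in old, -1.40, SE 0.22, adjusted p = 0.00234) and Hsp90aa1 (529 ± 109 CPM in young and 295 ± 39.3 CPM in old, -0.84, SE 0.17, adjusted p = 0.0114; up to 0.0774 without young replicate 3 or old replicates 1 or 3), and 1 was higher, the stress sensor Ern1 (0.91, SE 0.21, adjusted p = 0.0194; up to 0.108 without young replicate 3 or old replicates 2 or 3). Among all tested genes 1.24% were called lower and 2.38% higher. In lists linked with ageing the counts were close to the 2.38% of all genes called higher. Of 39 genes of the p53 pathway 1 was higher, Trp53i11 (0.86, SE 0.18, adjusted p = 0.0115, and 0.0688 without old replicate 2), and Trp53 (adjusted p = 0.277) and Cdkn1a (0.728) did not pass. Cdkn2a, which encodes the senescence marker p16, had at most 7 counts in any library and was not tested. Of 27 genes of the senescence list 1 was higher, the protease inhibitor Timp2 (120.1, 126 and 80.8 CPM in young, 181, 179 and 183 CPM in old, 0.73, SE 0.17, adjusted p = 0.0223; up to 0.115 without young replicate 3 or any old library). In 37 genes of cholesterol and fatty acid synthesis, 41 nuclear genes of oxidative phosphorylation, 12 mitochondrially encoded and 85 ribosomal protein genes edgeR and DESeq2 called 0. At an unadjusted p under 0.05 these lists held 3, 0, 1 and 2 genes, and limma-voom called 1, 0, 1 and 0. In the circadian clock 1 of 19 was higher, Bhlhe41 (18.3, 29.3 and 6.67 CPM in young, 56.6, 44.5 and 47.5 CPM in old, 1.46, SE 0.38, adjusted p = 0.0418; up to 0.14, lost without any library but young replicate 2), while 18 of 19 had positive values with a median of 0.52. The labels give no time of day for the samples.

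**Figure D4:**
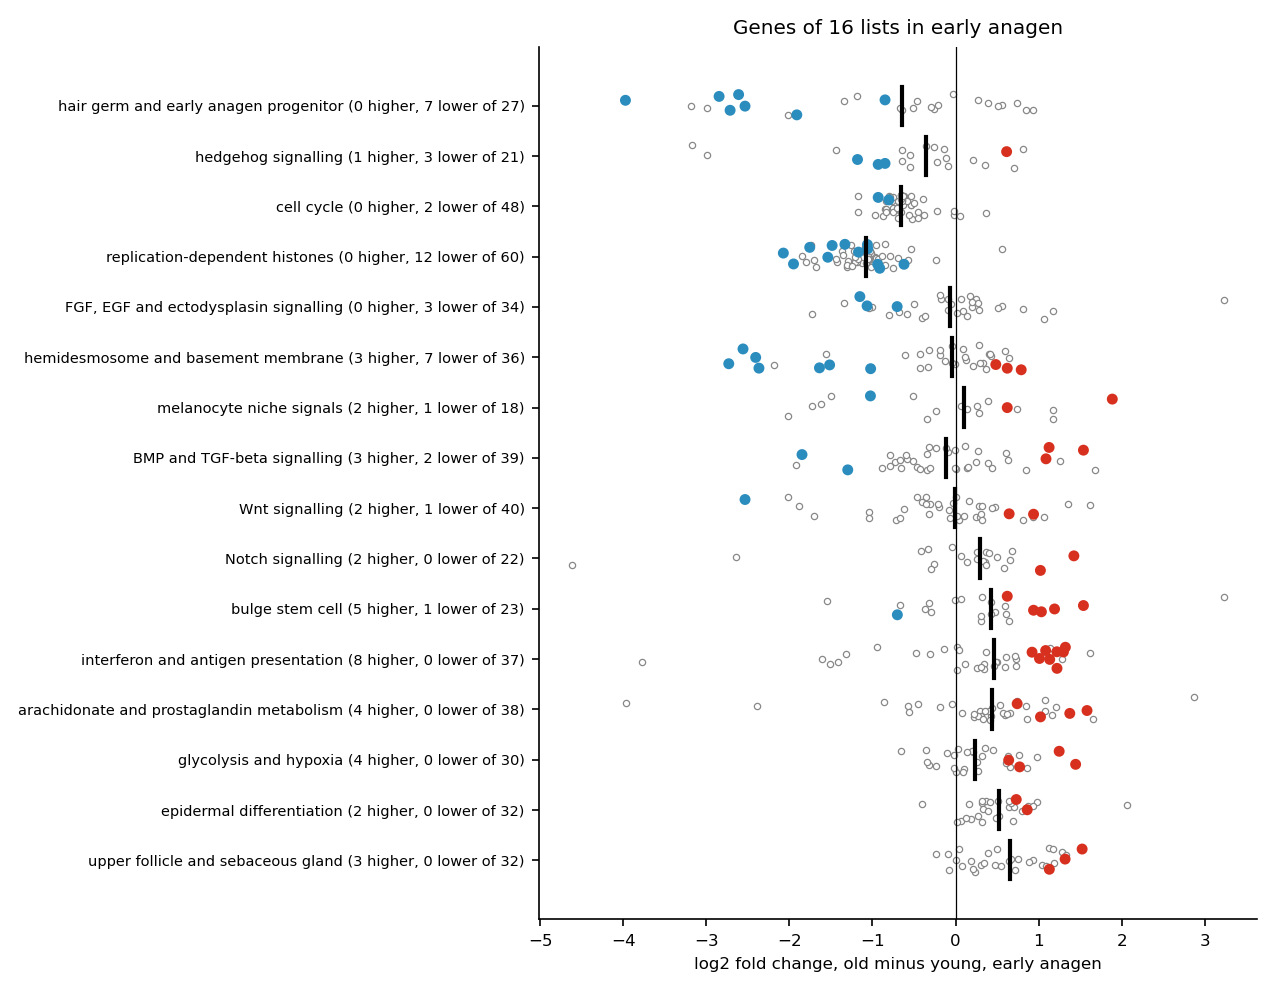
Each row is 1 of 16 of the gene lists and each point 1 tested gene, placed at its log2 fold change, old minus young, in early anagen (points are spread vertically for legibility only). Filled points passed an adjusted p of 0.05, red higher and blue lower in old; black bars mark the medians, which in the 16 lists drawn run from -1.08 for histones to 0.66 for the upper follicle and sebaceous list.

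Among genes outside these lists, Slco2b1, an uptake carrier for organic anions, stood at 10.9, 4.94 and 4.03 CPM in young and 62.2, 38.6 and 26.5 CPM in old cells (2.67, SE 0.37, adjusted p = 0.00123). Sncg, gamma-synuclein, was near 0 in young early anagen (0, 0.267 and 0.629 CPM) and present in old (5.37, 5.78 and 9.66 CPM, 4.47, SE 0.64, adjusted p = 0.0014), while in telogen both ages had more, 17.6 ± 9.82 and 39.8 ± 7.46 CPM. Zc3h12a, a ribonuclease that degrades mRNAs of inflammatory cytokines, stood at 13.0, 21.2 and 10.1 CPM in young and 52.4, 44.9 and 66.4 CPM in old (1.89, SE 0.35, adjusted p = 0.00629). Some genes were named for their small p. Gsn, the actin-severing gelsolin, stood at 617, 565 and 501 CPM in young and 1351, 1277 and 1252 CPM in old (1.20, SE 0.14, adjusted p = 0.000389). Itpr2, a calcium release channel, stood at 130.0, 125 and 112 CPM in young and 300.4, 291 and 253 CPM in old (1.20, SE 0.14, adjusted p = 0.000389). Myo18a, an unconventional myosin, stood at 304, 278 and 233 CPM in young and 617, 586 and 529.5 CPM in old (1.09, SE 0.14, adjusted p = 0.000816). For Itpr2 and Myo18a the ages did not pass in telogen (329 ± 23.1 and 308 ± 43.1 CPM; 529.6 ± 34.4 and 485 ± 75.1 CPM) and the stage difference passed (1.30, adjusted p = 0.00581; 1.21, 0.0072). Rflnb, a filamin-binding protein, was higher in both stages, at 92.3, 121 and 96.2 CPM in young and 323, 335 and 222 CPM in old early anagen (1.51, SE 0.20, adjusted p = 0.000788) and by 1.41 in telogen (adjusted p = 0.00133). On the lower side Peg3, an imprinted zinc finger gene, stood at 61.2, 69.5 and 77.4 CPM in young and 4.74, 12.1 and 11.5 CPM in old (-2.88, SE 0.33, adjusted p = 0.000382). All of these passed without any single library, and Sncg was lost in limma-voom (adjusted p = 0.0605). Other genes among the largest changes lost their calls without some single libraries. Among higher genes these were Bglap3 (adjusted p up to 0.224), Skint3 (0.149), Sectm1b (0.12), Serpina3i (0.0506) and S100a4 (0.0999). Among lower genes they were Basp1 (up to 0.115), H2bu2 (0.138), Prss35 (0.0985) and Golga7b (0.139).

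The age difference of early anagen overlapped in part with that of resting skin. In telogen 330 genes (2.06%) differed by age, 165 in each direction, and the telogen and early anagen comparisons share no library. Called in both were 75 genes, 12.9% of the early anagen calls and 22.7% of the telogen calls. Of these, 62 went the same way, among them Cxcl12, Grem1, Nfatc1, Dkk3, Col17a1, Rflnb and Timp2 (higher) and Tnc, Fn1, Fras1 and Fgfr2 (lower). The other 13 went opposite ways. Gata6, Ly6d and 6 others were higher in old early anagen and lower in old telogen, and Fgfr3, Tbx1 and 3 others the reverse. Passing in 1 stage and not in the other does not show a difference, so the difference itself was tested. It passed for 250 genes, 161 with a higher and 89 with a lower age effect in early anagen, and 137 of these were among the 580 early anagen calls (23.6%). Left-out libraries moved these counts. The telogen count was 154 and 155 without young telogen replicates 1 and 2, and 161 and 171 without old telogen replicates 1 and 3. The stage difference count ran from 92 without old early anagen replicate 1 to 396 without young early anagen replicate 1, and was 112 to 152 without young telogen replicate 2, old telogen replicates 1 or 3, young early anagen replicates 2 or 3, or old early anagen replicates 2 or 3. Cux1, Dlx3, Ptch1, Gli1, Col14a1, Itpr2, Myo18a, Gata6, Ly6d, Slco2b1 and Fgfr3 kept this call without any single library of the 12.

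**Figure D5:**
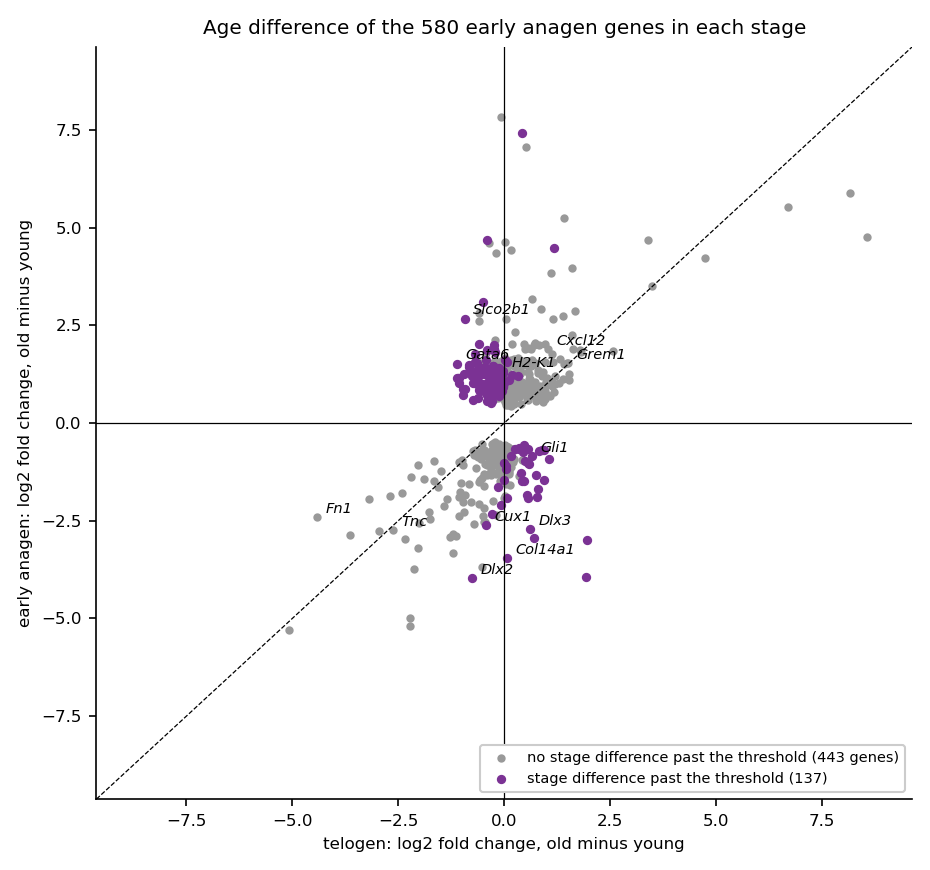
Each point is 1 of the 580 genes called in early anagen, with its log2 fold change, old minus young, in telogen on the horizontal and in early anagen on the vertical axis; the dashed line marks equal values. Purple points are the 137 genes whose age difference differed between stages: Col14a1, Dlx3 and Cux1 lie far below 0 at telogen values near 0, while Grem1, Tnc and Cxcl12 lie in the quadrants where both stages agree in sign.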

How the data were processed

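RNA of sorted follicle cells was sequenced in 12 libraries. The deposited table holds raw counts per gene and the authors' FPKM (fragments scaled to transcript length and library size), which could be recomputed from the counts and the table's exon lengths to within 0.005. The count columns were used for every test. Per the submitters' processing notes, the tools were bcl2fastq 2.17.1.14, cutadapt 1.9.1, HISAT2 2.0.1 and HTSeq 0.6.1 with the genome GRCm39. The kit is stranded, per the labels, with the strand setting of HTSeq not given in the sources used here, and overlapping genes on opposite strands may share reads.

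Counts were analysed in R 4.3.3 with edgeR 4.0.16: filterByExpr by group (16011 of 55359 genes kept), TMM factors, 1 mean per group over all 12 libraries, glmQLFit and glmQLFTest, and Benjamini-Hochberg adjustment over all genes kept, with a threshold of 0.05. Contrasts were old minus young in early anagen, the same in telogen, and the difference between them. CPM are counts scaled to the TMM-adjusted library total. Alternatives were DESeq2 1.42.0, limma 3.58.1 (voom, and log2(FPKM + 1)), other factors and filters, a replicate block, the early anagen libraries alone, and leaving out each library. The fit was tested on simulated counts with 200 known changes. It called 23% of the 2-fold and 60% of the 4-fold changes, with 0 false calls, so most simulated 2-fold changes were missed. Apart from these changes all groups had the same mean, and no library lay apart, so these shares may not hold for the real data. Depth was 7291178 to 8062286 counts in the early anagen libraries. No 2 libraries of a group agreed within sampling noise: the chi-square per gene was 9.45 or more.

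The comparison and the gene lists were chosen with earlier results of these data known, so no list is independent evidence. The rule for named genes took, among annotated protein-coding genes past the threshold with separate groups and a mean FPKM of at least 5, the 10 largest changes and 5 smallest p-values in each direction, up to 4 genes per list, a fixed set, and 5 genes in each direction for the stage difference. Other genes of the lists were named after their values were seen. A few list genes are not reported here and were left out of their lists' counts. Promoter sequences came from RefSeq (GRCm38.p6), in which 6 of the 8 higher interferon and antigen presentation genes were found, and gene types from a reference annotation were matched for 99.4% of tested genes. Figures were drawn with matplotlib 3.10.9.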

Additional observations from a re-analysis of the deposited data

Results flagged for a closer look

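The age difference itself differed between early anagen and telogen, by the test of the stage difference in edgeR, for 250 of 16011 genes and for the named genes given here, each as the early anagen log2 difference minus the telogen one. In germ and signalling genes it was negative: -3.32 for Dlx3, -3.22 for Dlx2, -2.18 for Cux1, -2.39 for Id3, -1.58 for Kitl, -1.53 for Fgfr3, -1.51 for Gli1, -1.23 for Ptch1 and -1.14 for Lgr5. It was also negative for Col14a1 (-3.52), Mme (-2.66), Plppr3 (-2.58), Trps1 (-1.65) and Hsp90aa1 (-1.01). Among these, Dlx3, Cux1, Fgfr3, Gli1, Ptch1, Col14a1 and Mme passed without any single one of the 12 libraries. The Dlx2 call was lost without any library but young telogen replicate 1 or old early anagen replicate 2 (adjusted p up to 0.139). That of Id3 was lost without any library but young telogen replicate 3, old telogen replicate 3 or young early anagen replicate 1 (up to 0.138). Kitl did not pass without young telogen replicates 2 or 3, old telogen replicate 1, young early anagen replicate 3 or old early anagen replicates 1 or 3 (up to 0.113). The Lgr5 call was lost without any library but young telogen replicate 3, old telogen replicate 3 or young early anagen replicate 1 (adjusted p up to 0.13). That of Plppr3 was lost without any library but young telogen replicate 1 or old telogen replicate 2 (up to 0.0978). Trps1 did not pass without old telogen replicate 3, young early anagen replicate 3 or old early anagen replicates 1 or 3 (up to 0.0529). The Hsp90aa1 call was lost without any library but young telogen replicate 1, old telogen replicate 2 or young early anagen replicate 1 (adjusted p up to 0.144).

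Positive values were found for the upper follicle genes Gata6 (2.64), Ly6d (2.13) and Plet1 (1.80), for Foxc1 (1.32), Dtx4 (2.26) and Notch3 (1.76), and for H2-K1 (1.34), H2-Q4 (1.03) and Ly6e (1.64). The others were Slco2b1 (3.61), Sncg (3.29), Sectm1b (2.63), Serpina3i (2.23), Itpr2 (1.30), Fosl2 (1.26), Myo18a (1.21) and Gsn (0.87). Gata6, Ly6d, Plet1, Slco2b1, Itpr2, Fosl2 and Myo18a passed without any single library. The Sncg call was lost without any library but young telogen replicate 1 or young early anagen replicate 3 (adjusted p up to 0.106). That of Sectm1b was lost without any library but young telogen replicate 1, old telogen replicate 2, young early anagen replicate 1 or old early anagen replicate 3 (up to 0.148). Serpina3i lost its call without any library but young telogen replicate 2 or young early anagen replicate 1 (up to 0.125). The Gsn call was lost without any library but young telogen replicate 1 or young early anagen replicate 1 (adjusted p up to 0.106). That of Foxc1 was lost without old telogen replicate 3, young early anagen replicate 2 or old early anagen replicates 1 or 3 (up to 0.0664). Dtx4 did not pass without young telogen replicate 2, old telogen replicate 3 or old early anagen replicate 1 (up to 0.061). The Notch3 call was lost without young telogen replicate 2, young early anagen replicates 2 or 3 or old early anagen replicates 1, 2 or 3 (adjusted p up to 0.0797). That of Ly6e was lost without old early anagen replicate 1 (up to 0.0665). H2-K1 lost its call without any library but young telogen replicates 1 or 3, old telogen replicate 2 or young early anagen replicate 1 (up to 0.0841). The H2-Q4 call was lost without any library but young telogen replicates 1 or 3, old telogen replicate 2 or young early anagen replicate 1 (adjusted p up to 0.0995).

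The 5 largest positive values by the naming rule belonged to genes that passed as lower in old telogen, with adjusted p-values there of 0.00491 (Mc5r), 0.00421 (Aadacl3), 0.00596 (Tgm2), 0.0186 (Aldh1a1) and 0.00387 (Far2). Mc5r (5.10) fell from 23.5 ± 17.1 CPM in young to 0.842 ± 0.529 CPM in old telogen, Aadacl3 (4.79) from 28.9 ± 19.0 to 0.911 ± 0.257, Tgm2 (4.47) from 24.0 ± 11.8 to 2.86 ± 1.93, Aldh1a1 (4.05) from 53.1 ± 23.1 to 7.59 ± 3.65 and Far2 (4.04) from 36.7 ± 18.3 to 3.74 ± 1.49 CPM. None of these 5 passed the early anagen comparison (adjusted p = 0.166 for Tgm2, 0.286 for Aldh1a1, 0.448 for Far2, 0.884 for Mc5r and 0.945 for Aadacl3). Mme and Plppr3 did not pass in early anagen either (adjusted p = 0.056 and 0.0826), though each was called in 4 of 9 alternative fits. Tgm2 and Far2 passed the stage difference without any single library. The Mc5r call was lost without old telogen replicate 3, young early anagen replicate 2 or old early anagen replicates 1 or 3 (adjusted p up to 0.061). That of Aadacl3 was lost without any library but young telogen replicate 3, old telogen replicate 2, young early anagen replicate 1 or old early anagen replicate 2 (up to 0.0996). Aldh1a1 did not pass without old telogen replicate 3, young early anagen replicate 2 or old early anagen replicate 2 (up to 0.0594). Of all genes given here, Slco2b1, Col14a1, Dlx3, Itpr2, Myo18a, Cux1, Gata6, Ly6d, Ptch1, Gli1, Fgfr3, Tgm2 and Aldh1a1 kept the stage difference in all 8 alternative fits, and each of the others lost it in at least 1.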

How the results depend on the processing

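The early anagen count of 580 genes (381 higher, 199 lower) rose to 1222 (758 and 464) without a filter on low counts, 1330 (662 and 668) with the early anagen libraries alone and 1071 (608 and 463) with DESeq2. With limma on log2(FPKM + 1) 242 were higher, and with limma-voom 414 lower. DESeq2's size factors in edgeR (582), upper quartile factors (589) and a minimum of 5 CPM (640) moved the total by less than 1.5 times. Leaving out single libraries gave 202 to 568 genes (146 to 400 higher, 56 to 168 lower), the lowest without young replicate 3. The telogen count of 330 became 854 with no filter, 683 with DESeq2, 181 with limma on log2(FPKM + 1) and 154 to 442 with a library left out, alternatives chosen after seeing the data, as were the list counts without young replicate 3. The stage difference of 250 genes became 818, 604 and 81 in the same order, and 92 to 396 with a library left out. Of 84 named genes called in early anagen, 55 were called under every alternative and 33 also without any single library, and 0 changed direction. Of these 84 calls, 25 were lost in limma on log2(FPKM + 1) (among them Krt14, Slco2a1, Col17a1, Pfkp, Trps1, Fst, Ern1, Sectm1b, Id3, Ly6e, Ccnd1, Kitl, Calml3, Bhlhe41, Mitf, Notch3, Gpx4, Gas1, Hk1, Parp1 and Fosl2), 8 in limma-voom (among them Sncg, Slco2a1, Sectm1b, Id3 and Mitf), 5 with DESeq2's size factors in edgeR (among them Mitf, Gas1, Hk1 and Fosl2), 3 with a replicate block (among them Mitf and Parp1), 2 in DESeq2, 1 with upper quartile factors (Parp1) and 1 with a minimum of 5 CPM (Fosl2). Losses without a library stand in the text beside most of the genes named in it, and the cause was not tested. Deviations from the group means of same-numbered young and old libraries correlated at r = 0.0472, 0.00468 and -0.0152. For unlike numbers r ran from -0.0376 to 0.0322. So few pairs cannot show whether same-numbered samples shared a batch. A replicate block gave 628 genes, and 1 of 3 young libraries correlated best with its own number. The median of all genes moved between -0.0271 and 0.0315 over the scalings. Depth limits genes with few counts: 39348 genes were not tested, and a missed call does not show that a gene was alike in both ages.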

Other observations

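Some genes were nearly absent from the young libraries and present in all 6 old libraries of both stages. They were chosen after their values were seen. Csmd1, a large membrane protein with complement control domains, had 2 counts over the 3 young telogen libraries, 3 over young early anagen, 244 over old telogen and 156 over old early anagen. Flt1, a receptor for vascular growth factors, had 0, 1, 107 and 82 counts in the same order, the transcription factor Tcf24 0, 2, 142 and 65, and Mef2c, a transcription factor of muscle, nerve and blood lineages, 12, 3, 337 and 63. The old early anagen libraries held 4.49, 8.54 and 6.70 CPM of Csmd1, 5.62, 3.52 and 1.16 CPM of Flt1, 3.00, 2.64 and 2.58 CPM of Tcf24 and 1.25, 3.64 and 3.09 CPM of Mef2c. For Mef2c the groups overlapped across stages, since young telogen replicate 2 held 1.41 CPM, nearly all of the young telogen counts. All 4 passed in both stages (adjusted p = 0.00234, 0.0245, 0.0368 and 0.0394 in early anagen for Csmd1, Flt1, Tcf24 and Mef2c). Whether these 4 calls held with a library left out was not examined. The endothelial marker Pecam1 had 2, 7 and 21 counts in the young and 1, 6 and 16 in the old early anagen libraries.

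Genes of 2 giant scaffold proteins of the same family were higher in old early anagen and were named after their values were seen. Ahnak2, for which no gene type was matched, stood at a mean of 245 CPM in young and 599 CPM in old early anagen (log2 fold change 1.29, adjusted p = 0.000382), and its relative Ahnak at 2596 and 4479.8 CPM (0.79, adjusted p = 0.00123). Adamts9, a secreted protease that cleaves versican, was lower, at 217 and 42.8 CPM (-2.34, adjusted p = 0.000484). In telogen none of the 3 passed (adjusted p = 0.956 for Ahnak2, 0.649 for Ahnak and 0.738 for Adamts9), and the stage difference was 1.33 (adjusted p = 0.00606), 0.93 (0.0074) and -2.04 (0.0182) in that order. The calls of these 3 genes were not examined with a library left out.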
